A study of Mus musculus with 2 samples.

Results

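The cell cycle genes described here are 47 genes of 5 roles, namely the D-type cyclins with the Myc factors (5 genes), the G1 kinases *Cdk4* and *Cdk6*, inhibitors of cyclin-dependent kinases (4 genes), genes of S phase (17) and genes of G2 and mitosis (19). They were chosen by name, as every array probe annotated with one of these gene symbols, out of 29924 gene names on the array. All 47 were measured, by 65 probes, and all 47 were among the 20119 genes that passed the brightness filter. The ureters came from wildtype NMRI mouse embryos at E11.5. For 18 h the explants were kept either in IWP-2 (10 µM), an inhibitor of PORCN, the acyltransferase that cells need to secrete WNT proteins, or in its solvent DMSO (2:1000). All cultures were serum-free, the sex of the embryos was not determined, and each RNA came from a pool of ureters, so that the spread between individual ureters is not in these data. Each of 2 dual-colour Agilent oligonucleotide arrays compared a treated pool with a control pool of its own. The treated RNA carried AlexaFluor647 on array 1 and AlexaFluor555 on array 2.

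D-type cyclins are made in response to growth signals and bind CDK4 or CDK6, and these kinases inactivate the retinoblastoma protein and release E2F factors, which switch on the genes of DNA replication. Inhibitors of the CIP/KIP and INK4 families restrain the kinases. Genes of G2 and mitosis are held down in resting cells by the DREAM complex. They are switched on later by the MuvB complex with B-MYB and FOXM1, through the cell cycle genes homology region (CHR) of their promoters. The CCAAT box is another element of such promoters. *Myc* and *Ccnd1* are often named as targets of canonical WNT signaling, and in the ureter the WNT ligands of the epithelium act on the surrounding mesenchyme.

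Of the 47 genes, *Ccnd2*, encoding cyclin D2, was the one that passed the false discovery rate (FDR) of 0.05 in limma, and it fell. None rose. Over all genes tested 1.76% passed, 1.15% in the lower and 0.611% in the higher direction. These were 232 lower and 123 higher genes, and 36 and 7 when the log ratios were centred on the array median in place of loess, in which case *Ccnd2* did not pass. The replication genes and the mitosis genes lay on opposite sides of 0 by small amounts, none of which passed the test: the median log2 change of IWP-2 over control was -0.10 over the 17 genes of S phase and 0.13 over the 19 genes of G2 and mitosis. Of the remaining 46 genes, *Cdkn2c* had the lowest adjusted p, 0.242 in limma. In 40 of 47 genes the mean change was smaller than 0.2 on the log2 scale, against a standard error (SE) of the fit of 0.0975 to 0.232 (median 0.102), and the 95% interval of a gene reached 0.245 to either side of its mean in the median. Most changes were thus within the error that 2 arrays leave.

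The sequence behind the *Ccnd2* value is shown because the result rests on a single probe, printed at 4 spots on each array. It is given 5′ to 3′ as the array file lists it, all in lower case, and lies at chr6:127098696-127098755 on the minus strand of mouse build mm9.
Ccnd2 probe: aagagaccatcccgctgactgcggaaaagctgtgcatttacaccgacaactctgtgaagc

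For S phase and mitosis genes, the 250 bases before the start site were taken from RefSeq promoter entries (build GRCm38.p6), which were found for 39 of the 47 genes. There was none for *Ccnd1*, *Ccnd2*, *Myc*, *Cdkn1c*, *Ccne2*, *Mcm4*, *Ccna2* and *Aurkb*. Motifs were searched on both strands as exact letters: TTTCCCGC, TTTGGCGC or TTTCGCGC for E2F, TTTGAA for the CHR, and CCAAT for the CCAAT box. None of these can lie inside another, although neighbouring matches can share letters. The E2F letters stood before 5 of 15 genes of S phase (33.3%) and before 1 of 17 genes of mitosis (5.88%), against 1.78% of 27025 genes. The CHR letters stood before 6 of 17 genes of mitosis (35.3%) and 2 of 15 genes of S phase (13.3%), against 18.3% of all genes. CCAAT stood before 16 of 17 genes of mitosis (94.1%) and 10 of 15 genes of S phase (66.7%), against 37.5% of all genes. In the lists of other replication and other mitosis genes described further on, CCAAT stood before 56.8% and 57.8%, which does not repeat that contrast, the E2F letters before 18.9% and 8.89%, and the CHR letters before 16.2% and 40.0%. A match describes the letters and not a bound factor, and its relation to the expression values was not tested. The sequences below show the motifs in place for *Mcm6*, *Ccnb2*, *Cdk1* and *Cdc20*, which have an E2F or CHR match and whose windows overlap no annotated gene. Other genes with a match, *Kif11* among them, are not shown. Capitals mark the motif letters, where ATTGG is CCAAT and GCGCGAAA is TTTCGCGC on the other strand: 3 E2F matches, a pair of which share letters, and 2 CCAAT boxes for *Mcm6*, a CHR and 3 CCAAT boxes for *Ccnb2*, 2 CHR matches, 3 CCAAT boxes and an E2F match for *Cdk1*, and a CHR and 2 CCAAT boxes for *Cdc20*. The windows are chr1:128359706-128359955 for *Mcm6*, chr9:70421555-70421804 for *Ccnb2*, chr10:69352913-69353162 for *Cdk1* and chr4:118437344-118437593 for *Cdc20*, all on the minus strand.
Mcm6: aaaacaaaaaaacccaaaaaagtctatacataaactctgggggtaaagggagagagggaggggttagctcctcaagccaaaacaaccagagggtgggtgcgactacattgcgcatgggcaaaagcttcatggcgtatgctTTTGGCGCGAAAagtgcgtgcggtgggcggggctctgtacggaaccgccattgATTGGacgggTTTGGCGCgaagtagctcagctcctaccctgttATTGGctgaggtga
Ccnb2: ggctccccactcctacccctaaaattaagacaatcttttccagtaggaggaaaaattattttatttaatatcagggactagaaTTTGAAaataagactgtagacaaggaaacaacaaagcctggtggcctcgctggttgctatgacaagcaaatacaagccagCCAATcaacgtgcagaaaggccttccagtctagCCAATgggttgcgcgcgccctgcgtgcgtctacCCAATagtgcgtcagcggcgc
Cdk1: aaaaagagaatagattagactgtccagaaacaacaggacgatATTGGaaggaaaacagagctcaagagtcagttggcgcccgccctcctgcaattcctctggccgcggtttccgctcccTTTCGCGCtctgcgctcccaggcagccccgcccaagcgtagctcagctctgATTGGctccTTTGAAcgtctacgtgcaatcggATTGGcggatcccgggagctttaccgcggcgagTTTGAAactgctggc
Cdc20: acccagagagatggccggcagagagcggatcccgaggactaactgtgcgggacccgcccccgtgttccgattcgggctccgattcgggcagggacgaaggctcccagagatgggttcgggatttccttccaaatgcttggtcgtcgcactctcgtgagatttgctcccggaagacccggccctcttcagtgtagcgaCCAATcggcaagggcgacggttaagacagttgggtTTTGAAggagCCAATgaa

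Before the gene values, the state of the 2 arrays is given briefly. They shared 1 slide and 1 scan, no spot was saturated, and 68.6% to 70.7% of the spots were well above background in each channel. Over all genes the log2 ratios of array 1 and array 2 correlated with a Pearson r of 0.465 and a Spearman rho of 0.250 across genes, which are not independent replicates. Among genes known to respond to WNT, *Nkd1*, *Apcdd1*, *Sp5* and *Lef1* fell, with log2 changes of -1.31, -1.27, -1.12 and -0.89 (adjusted p = 0.0058, 0.00414, 0.0066 and 0.0137 in limma), and the negative feedback gene *Axin2* had a log2 change of -1.01 with an adjusted p of 0.0502. The levels and the signs on single arrays given here are those after loess. Centring on the array median instead left the 5 WNT response genes lower on both arrays, but lowered the share of all genes with the same direction on both arrays from 56% to 40.5%. No gene followed the dye at FDR 0.05, while 438 of 20119 did so at an unadjusted p under 0.05 (2.18%). These counts cannot show that dye effects are absent. They were made after loess, and the 1 residual degree of freedom of that fit includes the treatment effect. The 47 genes were bright, with a median log2 intensity of 14.2 against 11.8 over all genes tested, and all 47 were well above background in both channels of both arrays. *Cdk6*, *Cdkn2c*, *Ccne2*, *Aurkb* and *Cenpf* were the dimmest, with log2 intensities under 10.

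Markers of the cell types in the explants changed more than the cell cycle genes did, and their part in the values below was not tested. Ureteric mesenchyme markers had a median log2 change of -0.38 (-0.42 with median centring, where array 1 alone was at -0.0086), with *Tbx18*, *Tcf21* and *Bmp4* among the genes that fell, and their summed intensity with IWP-2 was 0.754 and 0.820 times that of the control on array 1 and array 2. This sum weighs bright probes most, and *Bmp4* alone went from 106201 to 72079 on array 1 and from 115757 to 61611 on array 2. Of the 8 ureteric mesenchyme markers, 5 were lower on both arrays and *Twist1* was higher on both, with a mean log2 change of 0.45. *Foxd1* (mean 0.27) and *Col1a1* (mean -0.07) went in opposite directions on the 2 arrays. Summed intensities were 1.36 and 1.59 times the control for endothelium, 1.25 and 1.42 times for blood, 1.31 and 1.40 times for macrophages and 1.35 and 1.30 times for neural crest and neurons. Of the 8 blood markers 6 were higher on both arrays under loess and 4 with median centring. For the 8 markers of neural crest and neurons these counts were 7 and 4. All 8 endothelial and all 8 macrophage markers were higher on both arrays (8 and 7 with log ratios centred on the array median), with medians of 0.47 and 0.50, and *Kdr*, *Cldn5* and *Adgre1* passed the FDR. The 8 epithelial markers had a median of 0.16 and none passed, and their summed intensities were 1.00 and 1.19 times the control. Of these 8, 4 were higher on both arrays and 2 lower on both, the WNT ligand genes *Wnt9b* (mean -0.45) and *Wnt7b* (mean -0.21). The 6 nephrogenic markers were split, with a median of 0.08 and summed intensities of 1.18 and 0.84 times the control on array 1 and array 2. On both arrays 2 were higher, *Meox1*, which passed the FDR, and *Cited1*. Another 2 were lower on both, *Gdnf* (mean -0.39) and *Wt1* (mean -0.72). *Six2* had a log2 change of 1.03 on array 1 and -0.38 on array 2. In RNA of whole explants, fewer cells of a type and less RNA per cell cannot be told apart.

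**Figure D1:**
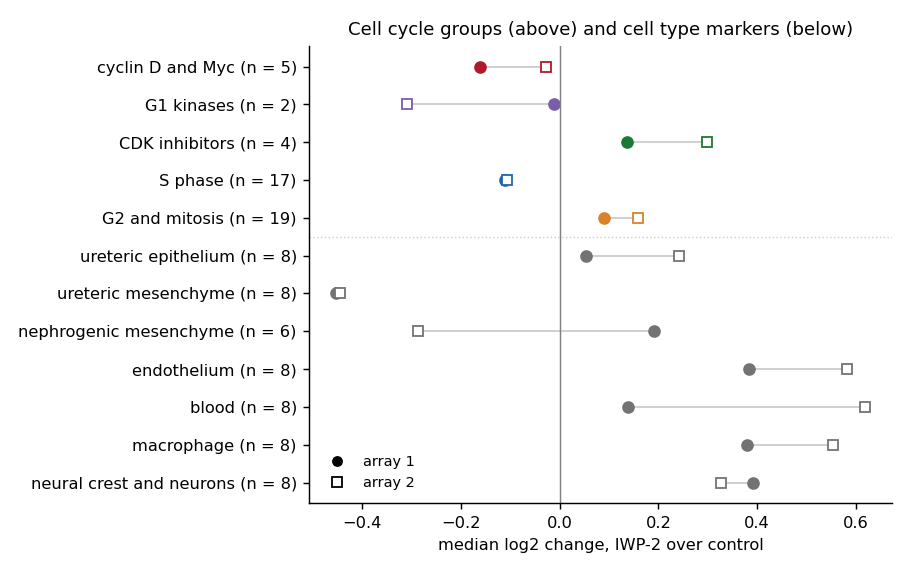
Median log2 change of IWP-2 over control on array 1 (filled circles) and array 2 (open squares) for the 5 roles of cell cycle genes above the dotted line and for 7 lists of cell type markers below it, with the number of genes tested in each list. The S phase median was -0.11 on both arrays and that of G2 and mitosis 0.09 and 0.16, while ureteric mesenchyme lay at -0.45 and -0.44 and endothelium at 0.38 and 0.58; with log ratios centred on the array median in place of loess, S phase was above 0 on array 1 and mitosis below 0 on array 2.

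The D-type cyclins separated. *Ccnd2* had a normalised intensity of 41258 in the control and 24065 with IWP-2 on array 1, and of 40010.0 and 19984 on array 2. Both treated pools were thus below both control pools, and all 4 spots were lower on each array, by log2 ratios of -0.86 to -0.69 on array 1 and of -1.05 to -0.95 on array 2. The mean log2 change was -0.89 ± 0.16 (SD, n = 2 arrays), with a 95% interval of -1.15 to -0.63 and an adjusted p of 0.0166 in limma, and corresponds to a level 1.85-fold lower than in the control. *Ccnd2* ranked number 124 from the lowest of all genes tested. In the 4 other ways of processing that could move the size, it lay between -0.92 and -0.89. Over these and 5 further ones that leave the size of a gene with 1 probe as it is, the adjusted p spanned 0.00678 to 0.367, and the gene passed FDR 0.05 in 4 of the 9. With log ratios centred on the array median in place of loess, the arrays lay further apart, at -0.49 and -1.32.

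*Ccnd1*, encoding cyclin D1, had intensities of 68759 and 73634 for control and IWP-2 on array 1 and of 60041 and 59117 on array 2. The arrays thus pointed in opposite directions, and the mean log2 change was 0.04 ± 0.09 (SD, n = 2 arrays), with a 95% interval of -0.20 to 0.28 and an adjusted p of 0.969 in limma. *Ccnd3*, encoding cyclin D3, rested at 60605 and 62585 on array 1 and at 47311 and 51695 on array 2, a mean log2 change of 0.09 ± 0.06. The interval of *Ccnd2* overlapped neither that of *Ccnd1* nor that of *Ccnd3* (-0.15 to 0.32), although the difference between the genes was not tested.

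*Myc*, encoding a transcription factor that drives growth and ribosome production, had intensities of 12719 in the control and 10178 with IWP-2 on array 1 and of 13658 and 12136 on array 2. All 4 spots were lower on both arrays and both treated pools lay below both control pools. The mean log2 change was -0.25 ± 0.11 (SD, n = 2 arrays), with an unadjusted p of 0.049 and an adjusted p of 0.370 in limma, so *Myc* did not pass the FDR. For *Mycn*, encoding the related N-MYC, the intensities were 33124 and 29636 on array 1 and 35855 and 35199 on array 2. Its mean log2 change of -0.09 ± 0.09 was within the standard error of 0.101 (adjusted p = 0.863 in limma), and the treated pool of array 2 lay above the control pool of array 1.

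**Figure D2:**
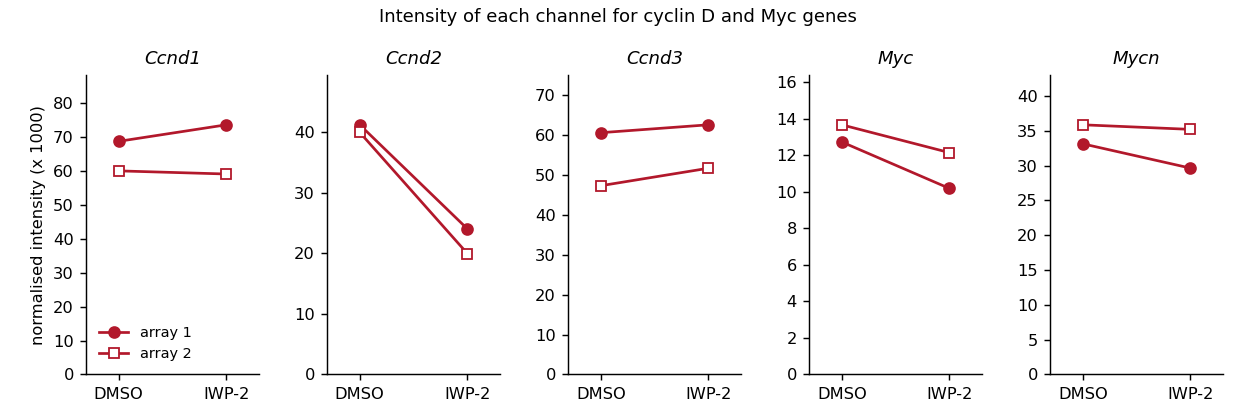
Normalised intensity (in units of 1000, linear axes from 0, a separate axis for each gene) of the control and the IWP-2-treated pool on array 1 (filled circles) and array 2 (open squares) for the 5 cyclin D and Myc genes, with lines joining the pools of an array. *Ccnd2* went from 41258 to 24065 and from 40010.0 to 19984, while the lines of *Ccnd1* and *Ccnd3* are nearly level.

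*Cdk6*, a kinase partner of the D-type cyclins, was among the dimmest genes, with intensities of 413 and 380.5 for control and IWP-2 on array 1 and of 439 and 315 on array 2. Its mean log2 change was -0.30 ± 0.25 (SD, n = 2 arrays), with an unadjusted p of 0.0445 and an adjusted p of 0.354 in limma. *Cdk4*, the other partner, had log2 changes of 0.10 and -0.14 on the 2 arrays and a mean of -0.02. Its 4 probes had mean changes of -0.18 to 0.00, the widest spread among the 12 genes with more than 1 kept probe.

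All 4 inhibitors had mean changes above 0 and none passed the FDR. *Cdkn2c*, encoding p18-INK4C, which binds CDK4 and CDK6, had intensities of 802 in the control and 913 with IWP-2 on array 1 and of 598 and 874 on array 2. Both treated pools lay above both control pools, with a mean log2 change of 0.37 ± 0.25 (SD, n = 2 arrays), an unadjusted p of 0.0201 and an adjusted p of 0.242 in limma. *Cdkn1b*, encoding p27-KIP1, had intensities of 13450.2 and 14458 on array 1 and of 12934 and 17152 on array 2, a mean log2 change of 0.26 ± 0.21 with an adjusted p of 0.419 in limma. Here too the treated pools lay above both control pools. *Cdkn1a*, encoding p21-CIP1, a target of p53, had intensities of 6410.0 and 6506 on array 1 and of 6683 and 7622 on array 2, a mean log2 change of 0.11 ± 0.12 (adjusted p = 0.837 in limma). Its 2 kept probes differed in sign, with means of 0.11 for the brighter, used here, and -0.03 for the other. *Cdkn1c*, encoding p57-KIP2, went in opposite directions, with intensities of 137058 and 154143 on array 1 and of 131004 and 122973 on array 2, and a mean log2 change of 0.04 ± 0.18.

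At an unadjusted p under 0.05, 3 of the 47 genes were lower (*Ccnd2*, *Myc* and *Cdk6*) and 1 was higher (*Cdkn2c*). Of all genes tested, 4.74% were lower and 8.67% higher at that level. Of the 47 genes, 33 had the same direction on both arrays, against 56% of all genes tested. With log ratios centred on the array median in place of loess, 13 of 47 did, against 40.5% of all genes, and 10 genes shared 1 direction on both arrays under either normalization. These were *Ccnd2*, *Myc*, *Cdk6*, *Cdk2* and *E2f1*, which were lower, and *Cdkn1a*, *Cdkn1b*, *Cdkn2c*, *Bub1* and *Kif23*, which were higher. The share of all genes tested that kept 1 direction under both normalizations was not counted, so that the 10 genes cannot be set against it. Whether treated and control pools overlapped was read from the levels after loess for every gene. The share of all genes tested without such overlap was not counted, so that these statements describe single genes.

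**Figure D3:**
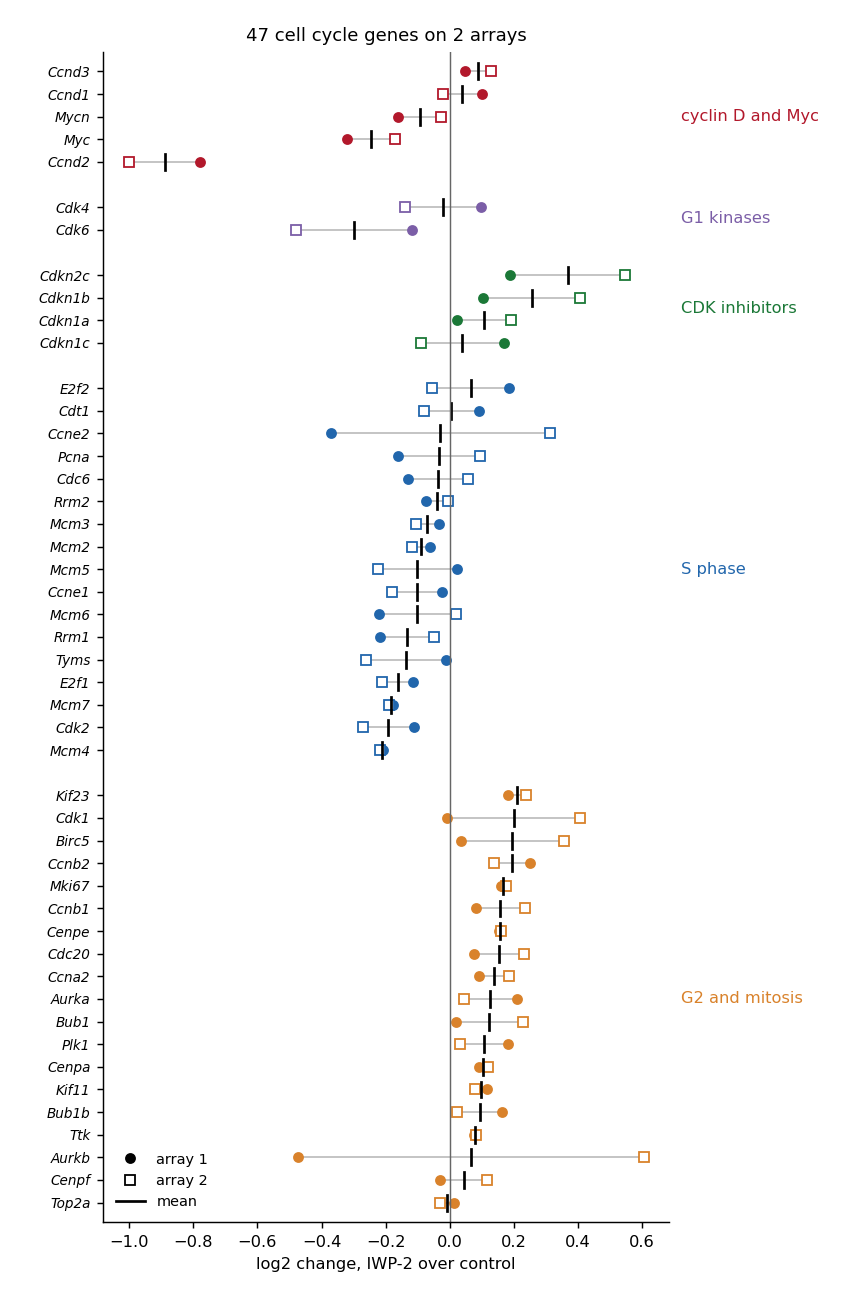
Log2 change of IWP-2 over control for each of the 47 genes on array 1 (filled circles), array 2 (open squares) and as their mean (black bars), grouped by role and ordered by the mean within a role. *Ccnd2* lies far from the rest at -0.78 and -1.002, most S phase genes lie just below 0 and most G2 and mitosis genes just above it, and *Ccne2* and *Aurkb* differ most between the arrays; with log ratios centred on the array median in place of loess, the array medians of both groups shift up on array 1 and down on array 2.

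Of the 17 genes of S phase, 15 had a mean change below 0 (50% of all genes tested did), 10 were lower and 0 higher on both arrays (3 and 0 with log ratios centred on the array median in place of loess), and none passed the FDR. Over all genes tested 27.5% were lower on both arrays under loess, and among genes of the middle range of brightness of the 47 genes 26.9% were. With median centring 17.6% of the S phase genes were lower on both arrays, against 20.6% of all genes tested. The group median was -0.11 on each array, and the means ranged from -0.21 for *Mcm4* to 0.06 for *E2f2*; with log ratios centred on the array median in place of loess, the group median was 0.17 on array 1 and -0.41 on array 2, where the medians of all genes were at 0.11 and -0.14. Relative to those medians of all genes, S phase stood at 0.06 and -0.27 under centring, and at -0.10 and -0.12 under loess. The side of 0 on array 1 therefore depended on the normalization, whereas the median of the array means was -0.10 under loess and -0.11 with centring. Centring moved the group median up on array 1 (treated RNA in AlexaFluor647) and down on array 2 (treated RNA in AlexaFluor555). With 2 arrays, dye and array cannot be told apart.

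The MCM genes encode the subunits of the replicative helicase. All 6 had mean changes below 0, from -0.21 to -0.07, and 10 of their 12 array values were below 0 under loess, while with median centring all 6 were above 0 on array 1 and below 0 on array 2. *Mcm4* had intensities of 37831 in the control and 32733 with IWP-2 on array 1 and of 42717 and 36750.0 on array 2. Both arrays gave a log2 change close to the mean of -0.21 ± 0.01 (SD, n = 2 arrays), with an adjusted p of 0.435 in limma, and the treated pools lay below both control pools. *Mcm7* had intensities of 64599 and 57187 on array 1 and of 63580.5 and 55749.9 on array 2, a mean log2 change of -0.18 ± 0.01 (adjusted p = 0.539 in limma), also without overlap. *Mcm5* and *Mcm6* changed sign between the arrays.

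*Cdk2*, the kinase partner of cyclin E and cyclin A, had intensities of 6257 and 5791 on array 1 and of 6940.1 and 5748 on array 2, a mean log2 change of -0.19 ± 0.11 (SD, n = 2 arrays; adjusted p = 0.539 in limma). Both treated pools lay below both control pools. The 3 genes for the synthesis of deoxynucleotides, *Rrm1* and *Rrm2* of ribonucleotide reductase and *Tyms* of thymidylate synthesis, had means of -0.14 to -0.04 and were below 0 in all 6 array values under loess and in 3 of 6 with median centring. *Pcna*, encoding the sliding clamp of the DNA polymerases, had intensities of 62600.4 and 55913 on array 1 and of 70903 and 75651 on array 2. It thus went in opposite directions, and its mean log2 change was -0.03 ± 0.18 (adjusted p = 0.978 in limma). The loading factors *Cdc6* and *Cdt1* lay at -0.04 and 0.00. *Ccne2*, the dimmest gene of the 47, differed most within the group, at -0.37 and 0.31.

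Of the 19 genes of G2 and mitosis, 18 had a mean change above 0, 15 were higher and 0 lower on both arrays (4 and 0 with log ratios centred on the array median in place of loess), and none passed the FDR. Over all genes tested 28.5% were higher on both arrays under loess, and 26.7% were among genes of the same middle range of brightness. With median centring 21.1% of the mitosis genes were higher on both arrays, against 20% of all genes tested. The means ranged from -0.01 for *Top2a* to 0.21 for *Kif23*; the group median was 0.09 on array 1 and 0.16 on array 2, and 0.33 and -0.11 with log ratios centred on the array median in place of loess. Relative to the medians of all genes the group stood at 0.22 and 0.03 under centring, and at 0.10 and 0.14 under loess.

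*Kif23*, encoding a motor protein of the central spindle in cytokinesis, had intensities of 10371 in the control and 11756 with IWP-2 on array 1 and of 12100.4 and 14279 on array 2. Its mean log2 change was 0.21 ± 0.04 (SD, n = 2 arrays; adjusted p = 0.451 in limma), and the treated pool of array 1 lay below the control pool of array 2. *Mki67*, the proliferation marker that coats mitotic chromosomes, had intensities of 23879 and 26647 on array 1 and of 28416 and 32052 on array 2. Under loess the arrays gave nearly the same log2 change, with a mean of 0.17 ± 0.01 (adjusted p = 0.608 in limma), and its probes gave means of 0.17 and 0.19. With median centring the arrays went in opposite directions, at 0.40 and -0.15. The treated pool of array 1 lay below the control pool of array 2.

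*Ccnb2*, encoding cyclin B2, the partner of CDK1 in mitosis, had intensities of 20318 and 24159 on array 1 and of 20936 and 23055 on array 2, a mean log2 change of 0.19 ± 0.08 (SD, n = 2 arrays; adjusted p = 0.513 in limma). Here both treated pools lay above both control pools after loess, while with median centring the log2 changes were 0.47 on array 1 and -0.13 on array 2. *Birc5*, encoding survivin of the chromosomal passenger complex, had intensities of 34279 and 35145 on array 1 and of 39075 and 49957 on array 2, a mean log2 change of 0.20 ± 0.23 (adjusted p = 0.614 in limma), so that its mean under loess rests mostly on array 2. With median centring its log2 changes were 0.35 on array 1 and -0.06 on array 2. These values are of the brightest of 3 kept *Birc5* probes, whose means ranged from 0.06 to 0.20. Under loess 1 of the other probes gave 0.10 on array 1 and 0.03 on array 2.

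The mitotic cyclins with *Cdk1* had means of 0.14 to 0.20, with 7 of 8 array values above 0 under loess and 5 of 8 with median centring. The 4 genes of the spindle checkpoint and its target, *Bub1*, *Bub1b*, *Ttk* and *Cdc20*, had means of 0.08 to 0.15 and were above 0 in all 8 array values under loess and in 5 of 8 with median centring. The kinases *Aurka*, *Aurkb* and *Plk1* had means of 0.07 to 0.13, and the centromere proteins *Cenpa*, *Cenpe* and *Cenpf* of 0.04 to 0.16, each with 5 of 6 array values above 0 under loess, and with 3 and 4 of 6 with median centring. *Aurkb* was dim and had log2 changes of -0.47 and 0.60, the largest disagreement between arrays among the 47 genes.

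Mitosis and S phase genes were then set against each other on the same arrays, where a shift common to both groups drops out. A shift that varies with brightness need not drop out, since the median log2 intensity was 14.7 for S phase and 13.7 for mitosis genes. The median of mitosis genes was higher than that of S phase genes by 0.20 on array 1, by 0.27 on array 2 and by 0.23 for the means of both arrays. Of all pairs of an S phase and a mitosis gene, the S phase gene was the lower in 85.4% on array 1 and in 91.3% on array 2 (75.2% and 89.5% with median centring). In 6 other ways of processing, median centring among them, the difference stayed between 0.20 and 0.27 for the means and between 0.16 and 0.30 on single arrays. With 2 arrays an exact permutation of signs cannot give a p below 0.5, so this difference is a description.

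**Figure D4:**
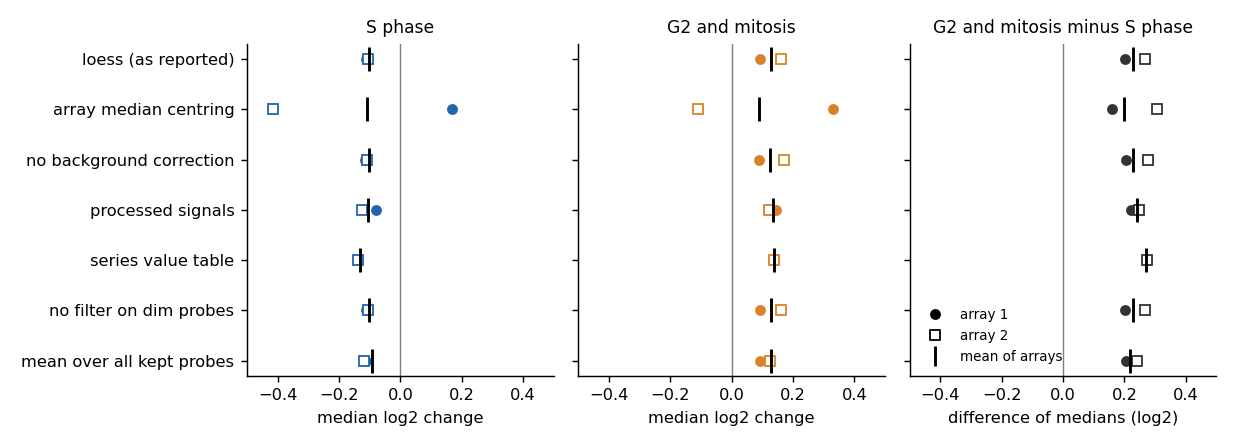
Median log2 change of the 17 S phase genes (left) and the 19 genes of G2 and mitosis (middle), and the difference of these medians (right), on array 1 (filled circles), array 2 (open squares) and for the means of both arrays (black ticks) under 7 ways of processing. Centring on the array median moved S phase to 0.17 and -0.41 and mitosis to 0.33 and -0.11, while the difference lay above 0 under each.

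Further genes of the same pathways, not among the 47, were looked up in lists by function. Of 47 other replication genes, 36 had a mean change below 0, with a median of -0.04 (-0.07 on array 1 and -0.08 on array 2) and a range from -0.22 for *Chaf1a* to 0.16 for *Asf1b*. Of 55 other mitosis genes, 50 had a mean change above 0, with a median of 0.10 (0.09 and 0.11) and a range from -0.10 for *Cenpm* to 0.27 for *Knl1*. With median centring both lists shifted up on array 1 and down on array 2, to 0.08 and -0.28 for replication and 0.24 and -0.11 for mitosis. No gene of either list passed the FDR. The median of the other mitosis genes was higher than that of the other replication genes by 0.14 for the means and by 0.17 and 0.19 on the arrays. The direction of this offset was that of the S phase and mitosis genes among the 47, and its size was smaller.

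**Figure D5:**
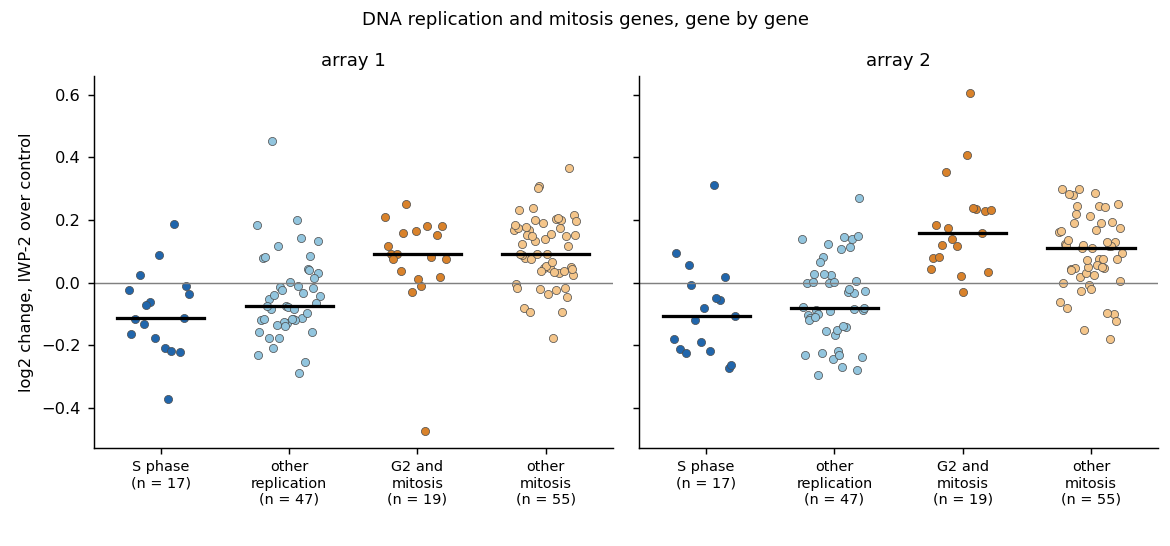
Log2 change of IWP-2 over control on array 1 (left) and array 2 (right) for each S phase gene, each gene of the list of other replication genes, each gene of G2 and mitosis and each gene of the list of other mitosis genes, with the median of each list as a black line. The medians of the mitosis lists (0.09 to 0.16) lay above those of the replication lists (-0.11 to -0.07) on both arrays; with log ratios centred on the array median in place of loess, the S phase median was above 0 on array 1 and the G2 and mitosis median below 0 on array 2.

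Of the 29 other regulators of G1, 28 could be tested, with a median of -0.04 (-0.06 and 0.08 on the arrays) and none past the FDR. *Mycl*, encoding L-MYC, was the lowest of them, at -0.66 and -0.47 on the arrays and an adjusted p of 0.0602 in limma, and *Cdkn2b*, encoding the inhibitor p15-INK4B, the highest, at 0.03 and 0.94. Of 22 genes known as Myc targets, *Cdk4* of the 47 genes among them, 19 had a mean change below 0, with a median of -0.12 (-0.09 and -0.13 on the arrays, 0.04 and -0.38 with median centring) and none past the FDR. They ranged from -0.26 for *Rrp12* to 0.11 for *Odc1*. Of the p53 response genes 16 of 17 could be tested, with a median of 0.08. *Pmaip1*, encoding the pro-apoptotic protein NOXA, rose, with intensities of 583 and 1053 for control and IWP-2 on array 1 and of 631 and 1727 on array 2, a mean log2 change of 1.15 and an adjusted p of 0.0231 in limma. *Trp53* itself was the lowest of this list, with a log2 change of -0.26 (adjusted p = 0.311 in limma).

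The study's methods describe a filter in place of a test, and a filter of that kind was run on the processed intensities. A gene had to differ by 2-fold or more, alike on the 2 arrays, with a brighter channel of 100 or above on each. It kept 50 lower (0.167%) and 11 higher genes (0.0368%) of 29899, and none of the 47. *Ccnd2* passed it on array 2 alone, and was the sole one of the 47 kept at a fold change of 1.5, where 165 genes were lower and 73 higher.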

How the data were processed

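Gene expression in E11.5 ureter explants was measured on 2 dual-colour arrays. Per the file headers, the scanner files contain spot and local background intensities for each dye, written by Feature Extraction 12.2.0.7 (10.7.3.1 in the submitters' processing notes), and intensities that the software had corrected and normalised between dyes. A value table deposited with the series gives a score per probe, which the authors rounded to the first decimal and which is a fold change with a sign for its direction. Probe positions are those of the files (mm9).

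The software was R 4.3.3 with its packages limma (3.58.1) and data.table (version 1.17.8). Mean intensities were corrected by normexp (offset 50) and log2 ratios normalised by loess within each array. Outlier spots were dropped and the 4 spots of a probe averaged. Probes needed more than a share of 0.5 of their spots well above background in the same RNA (treated or control) on each array, and the brightest kept probe stood for its gene. Normalised intensities are channel values after loess and scaling of the mean brightness between arrays, and are not compared between genes, since probes differ in response. The limma functions lmFit and eBayes, with the dye swap as a sign, tested 20119 genes with 1 residual and 5.52 prior degrees of freedom, with Benjamini-Hochberg adjustment across all of them. The number of arrays limits the precision. The fit treats the pools as replicates, whose spread may be technical.

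The 47 genes, the gene lists, the rule for named genes and the tests were chosen with earlier results of these data known. Full values are given for genes past FDR 0.05, for the 3 largest changes of each role alike on both arrays, and for *Ccnd1*, *Ccnd2*, *Myc*, *Mycn*, *Cdkn1a*, *Cdkn1c*, *Mki67* and *Pcna*. Other genes of the 47 are named as the ends of a range, as members of a functional group or because their arrays disagreed, and these, with *Ccnd3* and *Cdk4*, were picked after their values were seen. No set test was made. The fold filter used the processed intensities with values under 15 set to 15. Alternatives were median centring, no background correction, the processed intensities, the series table, no brightness filter, the mean over probes, a prior trended on intensity and robust, separate channels with and without a dye term, and leaving out an array. The procedure was tested on simulated data.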

Additional observations from a re-analysis of the deposited data

How the results depend on the processing

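The log2 change of *Ccnd2* kept its direction throughout, but not its adjusted p in limma. It was -0.90 (adjusted p = 0.367) with median centring, -0.89 (0.0522) with the processed intensities, -0.92 (0.311) with the series table, -0.89 (0.0525) without the brightness filter and -0.89 (0.207) with separate channels and a dye term, and single arrays gave -1.002 and -0.78. The control and treated pool of an array are paired by hybridisation; with separate channels and no dye term, that is with no replicate block, *Ccnd2* had an adjusted p of 0.0454 and stayed the single gene of the 47 that passed. The number of the 47 past FDR 0.05 was 0 lower and 0 higher with centring, the processed intensities, no filter, and separate channels with a dye term. It was 4 lower and 7 higher with the series table, and 3 lower and 1 higher at an unadjusted p under 0.05. The 11 genes called in the series table had equal rounded values on both arrays and hence no spread, and *Ccnd2* was not among them. The S phase median was -0.11 with centring and with the processed intensities, -0.13 with the series table, -0.091 as a mean over probes and -0.11 on either array. The median of all 47 genes was 0.0076 with the processed intensities, 0.063 with the series table and 0.021 to 0.033 on single arrays, and that of the inhibitors was 0.14 to 0.30 on single arrays. The fold filter kept 1 gene lower at a fold change of 1.5, and 0 to 1 on single arrays. Over all genes, 232 passed lower and 123 higher. These counts were 36 and 7 with centring, 176 and 74 without background correction, 171 and 75 with the processed intensities, 1322 and 1038 with the series table, 98 and 21 without the filter, 278 and 224 with the mean over probes, 290 and 226 with the trended prior, and 111 and 16 with separate channels and no dye term. With a dye term limma called 0 and 0, against 882 and 1361 at an unadjusted p under 0.05, 2 lower and 1 higher of the 47 genes among them. Of the 47 genes, 2 changed sign with centring (*Ccne2*, *Cdt1*), 1 with the processed intensities (*Cdt1*) and 0 with the series table, in which 5 had a rounded mean of 0. The difference of the mitosis and S phase medians under each alternative was added after seeing the data.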

Other observations

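Among genes outside the cell cycle lists, *Pmaip1* was the sole p53 response gene past FDR 0.05. Of the 16 tested genes of that list, 3 were lower and 9 higher on both arrays, while 27.5% and 28.5% of all genes tested were; with median centring these were 5 and 4, against 20.6% and 20% of all genes. *Cdkn2b*, an inhibitor of CDK4 and CDK6, was dim, with intensities of 161 in the control and 163 with IWP-2 on array 1 and of 166 and 319.6 on array 2, so that its mean log2 change of 0.48 rests on array 2. The list of Myc targets held 15 genes that were lower and 0 that were higher on both arrays, and 7 and 2 with median centring.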
